A study of Mus musculus with 24 samples.

Results

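NKp46 ILC3 of mice with Cre and floxed alleles of both REV-ERB genes, labelled DKO, were compared with those of control mice, labelled WT, by RNA sequencing. The comparison used 6 of the 24 libraries of the series, 3 labelled DKO and 3 labelled WT, chosen by the population and genotype in their labels, and all 21286 genes that passed a filter on low counts. Cells were sorted from the lamina propria of the small intestine of mice aged 8 to 12 weeks. DKO mice carried Vav1-Cre and loxP-flanked (fl/fl) alleles of both Nr1d1 and Nr1d2, and WT mice were littermates with the same fl/fl alleles, for which no Cre is named. The other 18 libraries are DKO and WT libraries of the sorted ILC1, CCR6 and DN populations, 3 of each. They entered the fit, and 3 in each group serve below to show where the NKp46 population differed. The Vav1 promoter is active across the blood lineages, so the deletion was not limited to ILC3. The labels do not say what DN stands for, at what time of day the cells were collected, or whether each library was made from a different animal. The p-values therefore measure the spread between these libraries.

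Group 3 innate lymphoid cells (ILC3) are tissue lymphocytes without rearranged antigen receptors that make interleukin (IL)-22 and IL-17 in response to IL-23 and IL-1. In the gut, the subset with the receptor NKp46, encoded by Ncr1, also shares genes with natural killer (NK) cells and ILC1. REV-ERBα and REV-ERBβ, encoded by Nr1d1 and Nr1d2, are heme-binding nuclear receptors that recruit corepressors. They compete with the ROR receptors for the same DNA element (RORE) and close a loop of the circadian clock. In that loop BMAL1 (Arntl) with CLOCK or NPAS2 activates genes through the E-box, PER and CRY proteins repress this activity, and the PAR bZIP factors DBP, TEF and HLF act through the D-box.

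The WT libraries held 29.19 to 48.9 M counts (M, 1e6 counts) and the DKO libraries 23.7 to 29.17 M. Genes with a count numbered 22961 to 24852 in WT and 21393 to 22269 in DKO libraries, also without overlap. Levels below are counts per 1e6 counts (CPM) in library 1, 2 and 3 of a group in that order. Protein-coding genes took 93.4 to 94.7% of counts in WT and 91.6 to 92.1% in DKO libraries, and ribosomal RNA genes took 2.07 to 3.45% and 3.57 to 4.80%. Neither range overlapped, and the part of this difference in the results was not tested. Spearman correlations of log CPM were 0.933 to 0.955 between libraries of a group and 0.924 to 0.937 between WT and DKO libraries. Xist stood at 148 to 194 CPM in the 6 libraries and the Y-linked Ddx3y at no more than 0.494 CPM. Markers of the labelled population were present in both genotypes, with Ncr1 at 937, 801 and 735 CPM in WT and 551, 397 and 445 CPM in DKO libraries. Tbx21, which encodes T-bet, was at 109, 91.3 and 73.7 CPM in WT and 107, 105 and 94.2 CPM in DKO libraries. Eomes, a factor of NK cells, was at 0 in 5 of the 6 libraries and at 0.176 CPM in DKO library 1. Outside this comparison, WT ILC1 library 2 stood apart with 11.1% of its counts on ribosomal RNA genes, and without it 604 genes were called higher and 784 lower.

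In the fit to all 24 libraries, 424 genes were called higher (1.99%) and 461 lower (2.17%) in DKO NKp46 ILC3, so 4.16% of the genes tested were called at an adjusted p under 0.05. Without an adjustment, 3426 genes (16.1%) had a p under 0.05. The median log2 fold change over all genes was -0.02, and the 3 DKO libraries lay above the 3 WT libraries for 9.76% of genes and below for 11.7%. Of the called genes, 233 rose and 293 fell by more than 1 on the log2 scale, and 61 rose and 66 fell by more than 4. In 14 of the genes that rose the WT libraries had 0 counts, and in 24 of those that fell the DKO libraries had 0 counts. The DKO libraries were the shallower ones, and the part of depth in these numbers was not tested. Calls were more frequent among abundant genes, from 0.753% of genes under 1 CPM to 6.51% at 10 to 100 CPM and 11.7% over 100 CPM. These shares are the background for every count of called list members below, and a list whose share is near them does not stand out from all genes. The lists were drawn up with earlier results of these data known, so a share above the background describes a list and is not a test of it. The counts of calls depended on single libraries. Leaving out 1 NKp46 library gave 232 to 344 genes higher and 284 to 399 lower, the fewest without WT library 3 (232 higher) and without WT library 2 (284 lower). Fewer calls by over 1.5 times came without DKO library 2 (236 and 302), WT library 1 (257 and 294) and, for the higher genes, WT library 2 (245). Of the 885 called genes, 178 higher and 186 lower ones were called in each of these 6 fits. A called gene named below was too, unless an adjusted p without a library is given beside it. Of the 424 higher genes 168 were also higher in the CCR6 population (39.6% of them and 40.9% of its 411 higher calls), 161 in DN (38% and 50.8% of 317) and 82 in ILC1 (19.3% and 49.4% of 166). Of the 461 lower genes 164 were also lower in CCR6 (35.6% and 37.7% of 435), 138 in DN (29.9% and 48.4% of 285) and 40 in ILC1 (8.68% and 67.8% of 59). These comparisons share no library with the NKp46 comparison but share its estimate of the spread. The labels do not say whether they share animals with it.

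**Figure D1:**
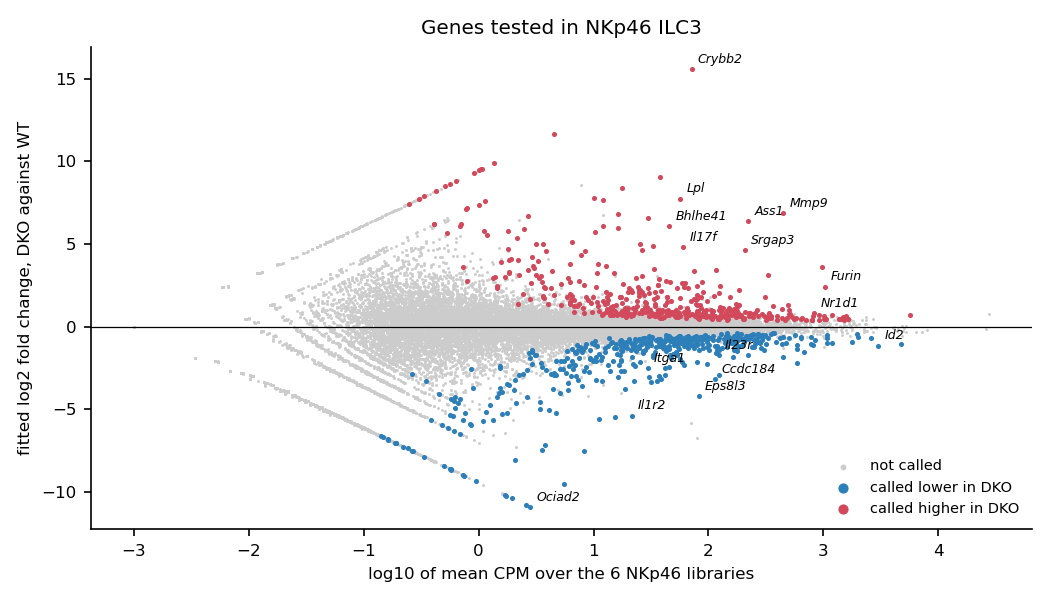
Fitted log2 fold change of DKO against WT (vertical) against the log10 of the mean CPM over the 6 NKp46 libraries (horizontal) for the 21286 genes tested, with 424 genes called higher in red and 461 called lower in blue. The straight bands of points at low levels are genes with few counts in a group, whose fitted fold change depends on the prior count.

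The targeted genes were not lower in the DKO libraries. Nr1d1 (ENSMUSG00000020889, chromosome 11, 98767932 to 98775333 on GRCm38) was at 623, 643 and 537 CPM in WT and 1002, 1162 and 1019 CPM in DKO libraries. The DKO libraries lay above the WT libraries, the fitted log2 fold change was 0.82 ± 0.20 (SE, here and below) and the adjusted p was 0.022 (adjusted p = 0.14 without DKO library 2). Nr1d2 (ENSMUSG00000021775, chromosome 14, 18204054 to 18239127) was at 67.1, 64.4 and 62 CPM in WT and 110.1, 129 and 149 CPM in DKO libraries, without overlap, and did not pass the test (adjusted p = 0.13). In a fit to the 6 NKp46 libraries alone, which takes the spread from these libraries only, the adjusted p of Nr1d2 was 0.0029. The labels do not say which exons the loxP sites flank, and counts summed over a gene do not show whether an exon was lost, so these levels do not check the deletion. Thra, which encodes thyroid hormone receptor alpha and overlaps Nr1d1 on the opposite strand (chromosome 11, 98740638 to 98769006), rose from 14.3, 15.7 and 14.6 to 35.3, 46.6 and 42.9 CPM (log2 fold change 1.49 ± 0.24, adjusted p = 0.00056). The strand setting of the counting is not given in the sources used here, so reads of Nr1d1 and Thra in the overlap cannot be told apart. Vav1, whose promoter drives the Cre, was at 245, 235 and 211 CPM in WT and 219.9, 243 and 217 CPM in DKO libraries (adjusted p = 0.97). Within 1 Mb of Nr1d1, 5 of 54 other tested genes were called, namely Arl5c, Ccr7, Krt27, Rpl23 and Thra, against 4.16% of all genes and 4.49% of those on chromosome 11. Near Nr1d2 0 of 10 and near Vav1 0 of 38 were called.

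The clock genes that rose were mostly repressors and PAR bZIP factors. Of 6 tested activators and ROR receptors 2 were called higher and 1 lower, of 11 repressors and their regulators 4 were called higher and 0 lower, and of the PAR bZIP factors and Nfil3 3 of 4 were called higher, against 4.16% of all genes called in either direction. The count of higher activators and ROR receptors was 1 in each fit without 1 NKp46 library except that without WT library 2. The median log2 fold changes of the 3 lists were 0.40, 0.92 and 2.40.

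Promoter sequences are shown for 4 of the clock genes that rose, because they hold the E-box or D-box through which the clock acts on its own genes. They are the 250 bases before the start of transcription in RefSeq on GRCm38.p6, given 5′ to 3′ on the strand of the gene, which is the minus strand for all 4. Capitals mark each match to the E-box CACGTG, or in Per3 to the D-box TTATGTAA.
Ciart, chr3:95882229-95882478: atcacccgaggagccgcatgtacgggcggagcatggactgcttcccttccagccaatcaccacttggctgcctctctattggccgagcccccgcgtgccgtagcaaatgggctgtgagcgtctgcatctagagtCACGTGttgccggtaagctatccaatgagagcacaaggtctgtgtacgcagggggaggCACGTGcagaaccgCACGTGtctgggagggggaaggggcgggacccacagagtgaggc
Bhlhe41, chr6:145865421-145865670: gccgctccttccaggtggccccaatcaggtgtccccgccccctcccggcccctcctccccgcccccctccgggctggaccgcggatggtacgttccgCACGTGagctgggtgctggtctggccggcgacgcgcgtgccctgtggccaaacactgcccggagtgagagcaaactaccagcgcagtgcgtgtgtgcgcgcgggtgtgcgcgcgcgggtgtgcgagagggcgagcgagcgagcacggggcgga
Cry1, chr10:85185055-85185304: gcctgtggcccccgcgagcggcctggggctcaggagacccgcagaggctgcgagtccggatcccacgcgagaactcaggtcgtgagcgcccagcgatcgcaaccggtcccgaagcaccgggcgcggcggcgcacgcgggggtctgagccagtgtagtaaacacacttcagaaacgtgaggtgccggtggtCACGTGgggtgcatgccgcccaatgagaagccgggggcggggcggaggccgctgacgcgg
Per3, chr4:151044666-151044915: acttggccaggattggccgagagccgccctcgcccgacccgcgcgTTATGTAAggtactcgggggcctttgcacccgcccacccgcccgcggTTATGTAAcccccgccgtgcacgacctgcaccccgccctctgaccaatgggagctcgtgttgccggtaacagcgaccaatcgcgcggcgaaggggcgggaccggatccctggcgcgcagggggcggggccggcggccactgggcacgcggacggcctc
The Ciart promoter held 3 E-boxes, which begin 44 to 116 bases before the start, and the other 2 E-box promoters held 1 each, at 153 bases in Bhlhe41 and 60 in Cry1. Per3 held 2 D-boxes, at 158 and 205 bases.

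Over the whole window of 300 bases, which adds 50 bases after the start, CACGTG on either strand was in 42 of the 252 promoters found for genes called higher (16.7%) and in 36 of 340 for genes called lower (10.6%). It was in 11% of the promoters of all genes tested and in 8.09% of all 27025 promoters. TTATGTAA on either strand was in 7 promoters of higher genes (2.78%), in 2 of lower genes (0.588%) and in 0.786% of those of all genes tested (1.11% of all promoters). The RORE, the half-site AGGTCA after an A- and T-rich stretch, searched on both strands, was in 2 promoters of higher genes, in 0 of lower genes and in 0.259% of all promoters. It was also in the window of Arntl, and in none of the other 15 clock genes of the 16 with a promoter entry, of 19 in all. Tef and Per1 also held an E-box in this window. A match describes letters in this window and does not show that a factor binds there.

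Among the activators, Npas2, a partner of BMAL1, was at 12.5, 9.94 and 10.0 CPM in WT and 54.9, 69.4 and 61.7 CPM in DKO libraries. The groups did not overlap, and it rose by 2.52 ± 0.47 on the log2 scale (adjusted p = 0.0022). Here and for all genes below, a smaller share of cells with a transcript and less of it per cell cannot be told apart in bulk libraries. Arntl, which encodes BMAL1 and is a classical target of REV-ERB repression, was at 41.3, 70.5 and 58.8 CPM in WT and 59, 90.6 and 81.6 CPM in DKO libraries. Its libraries overlapped, and it did not pass the test (log2 fold change 0.44 ± 0.28, adjusted p = 0.47, or 0.34 in the 6 libraries alone). Clock was at 31.7, 35 and 23.2 CPM in WT and 13.6, 32.7 and 23 CPM in DKO libraries, with overlap (adjusted p = 0.57). Rora, which encodes RORα, was at 772, 899 and 739 CPM in WT and 1034, 1013 and 1057 CPM in DKO libraries, a log2 fold change of 0.37 ± 0.10 (adjusted p = 0.049, and adjusted p = 0.24 without WT library 3).

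Of the repressors, Bhlhe41, which encodes DEC2, moved furthest, from 1.13, 0.904 and 2.06 to 61.3, 109 and 99.7 CPM (log2 fold change 6.07 ± 0.51, adjusted p = 1.2e-07). Its paralog Bhlhe40 stood at 4437, 4706 and 3250 CPM in WT and 4328, 4144 and 3654 CPM in DKO libraries (log2 fold change -0.03 ± 0.19, adjusted p = 0.97). Per3 was at 12.6, 10.1 and 13.3 CPM in WT and 54.9, 42.1 and 50.0 CPM in DKO libraries, and rose by 2.03 ± 0.29 on the log2 scale (adjusted p = 0.00011). Ciart, a repressor of the BMAL1 and CLOCK pair, was at 9.01, 9.14 and 14.1 CPM in WT and 24.6, 44.9 and 46.3 CPM in DKO libraries (log2 fold change 1.84 ± 0.26, adjusted p = 9.2e-05). For these genes each DKO library lay above each WT library, with the exception of Bhlhe40. Cry1 was at 8.52, 14.1 and 9.14 CPM in WT and 25, 21 and 14.1 CPM in DKO libraries, with WT library 2 level with DKO library 3, and its call at 0.92 ± 0.26 was marginal (adjusted p = 0.048, and adjusted p = 0.21 without DKO library 1). Per2 was at 7.78, 4.38 and 2.42 CPM in WT and 25.2, 16.4 and 15 CPM in DKO libraries without overlap but did not pass the test (log2 fold change 1.96 ± 0.73, adjusted p = 0.16). In the 6 libraries alone the adjusted p of Per2 was 0.026. Per1 and Cry2 did not pass either, at log2 fold changes of 0.19 ± 0.19 and 0.94 ± 0.42.

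The 3 PAR bZIP factors rose together. Dbp was at 16.2, 6.76 and 9.47 CPM in WT and 62.3, 84.4 and 76 CPM in DKO libraries (log2 fold change 2.78 ± 0.41, adjusted p = 0.00017). Hlf was at 15.2, 18.6 and 14.3 CPM in WT and 69.7, 111 and 123 CPM in DKO libraries (2.66 ± 0.34, adjusted p = 3.4e-05), and Tef at 19.8, 8.79 and 14.2 CPM in WT and 62.9, 65.7 and 60.0 CPM in DKO libraries (2.14 ± 0.37, adjusted p = 0.0011). In none of the 3 did the groups overlap. Nfil3, which encodes the D-box repressor E4BP4 and is needed for ILC development, was at 84.1, 115 and 113 CPM in WT and 152, 147 and 132 CPM in DKO libraries, without overlap (log2 fold change 0.47 ± 0.22, adjusted p = 0.29).

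**Figure D2:**
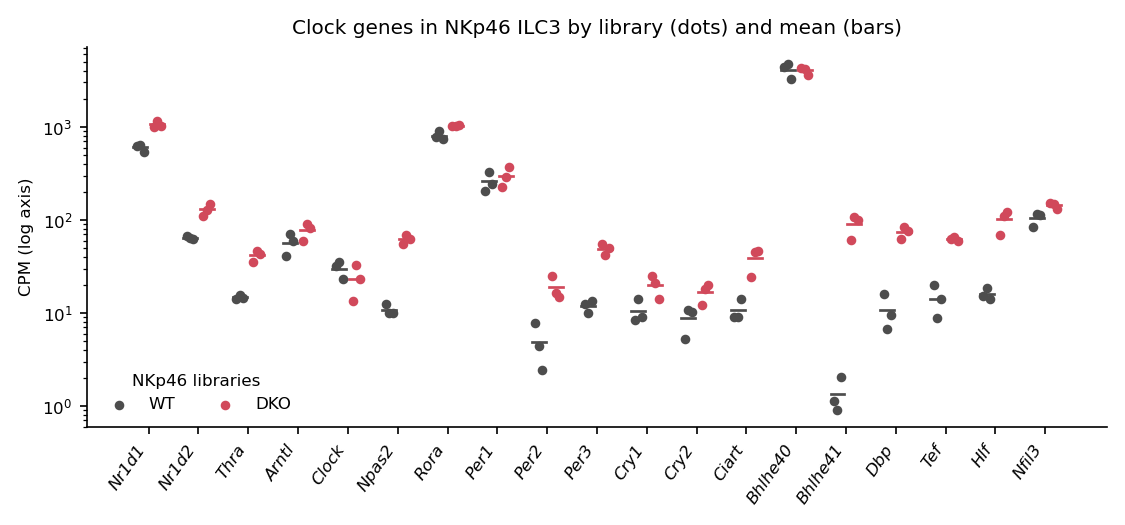
CPM on a log axis for 19 clock genes and neighbours, with each NKp46 library as a dot and the group mean as a bar, WT in grey and DKO in red. The DKO dots lie above the WT dots for Npas2, Per3, Ciart, Bhlhe41, Dbp, Tef and Hlf, and overlap them for Arntl, Clock, Per1, Cry1 and Bhlhe40.

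Of 10 tested receptors for IL-23, IL-12, IL-1 and IL-18, 3 were called lower and 0 higher, and of 9 receptors of the common gamma chain family 2 were called lower and 1 higher. This is 30% and 33.3% of the 2 lists called in either direction, against 4.16% of all genes and 11.7% of those over 100 CPM. Of the gamma chain family, 1 was lower without DKO library 1, DKO library 2 or WT library 2, and 0 were higher without DKO library 1, DKO library 2, WT library 1 or WT library 3. Il23r, the receptor for the main ILC3 activating cytokine, was at 212, 184 and 171 CPM in WT and 41.3, 71.2 and 58.1 CPM in DKO libraries. Each WT library was far above each DKO library, and the log2 fold change was -1.73 ± 0.20 (adjusted p = 7.3e-06). Il1r2, a decoy receptor for IL-1, was at 46.7, 38.8 and 40.7 CPM in WT and 2.54, 0 and 0.433 CPM in DKO libraries (log2 fold change -5.40 ± 0.91, adjusted p = 0.00075). The signalling receptor Il1r1 was at 155, 184 and 167 CPM in WT and 146, 144 and 130.0 CPM in DKO libraries (adjusted p = 0.75). Il18rap, a chain of the IL-18 receptor, was at 203, 167 and 185 CPM in WT and 90.2, 73.1 and 119 CPM in DKO libraries (-0.98 ± 0.17, adjusted p = 0.0014). Il2rb, shared by the IL-2 and IL-15 receptors, fell from 1228, 1068 and 927 to 683, 607 and 518 CPM (-0.83 ± 0.17, adjusted p = 0.0053). Il7r was at 650.4, 921 and 783 CPM in WT and 455, 458 and 579 CPM in DKO libraries (-0.66 ± 0.15, adjusted p = 0.012, and adjusted p = 0.098 without WT library 2). Il4ra was the call in the other direction, from 125, 170.4 and 134 to 256, 249 and 201 CPM (0.72 ± 0.16, adjusted p = 0.012, and adjusted p = 0.092 without WT library 1).

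Of 31 transcription factors of ILC lineages, 3 were called higher and 3 lower (19.4%, against 11.7% of all genes over 100 CPM). Rora was among the higher ones. Id2, a factor that all ILC need, fell from 3858, 3986 and 4605 to 1711, 1995 and 1903 CPM (log2 fold change -1.15 ± 0.14, adjusted p = 1.6e-05). The AP-1 family member Batf was at 55.2, 39 and 48.5 CPM in WT and 22.9, 34.9 and 21.9 CPM in DKO libraries (-0.84 ± 0.22, adjusted p = 0.026, and adjusted p = 0.14 without WT library 1). Tcf7, which encodes TCF-1, rose from 244, 265 and 222 to 379, 430.3 and 464 CPM (0.80 ± 0.12, adjusted p = 0.00014), and Tox from 185, 192 and 170.2 to 340.3, 291 and 299 CPM (0.77 ± 0.13, adjusted p = 0.00056). In Id2, Tcf7 and Tox the groups did not overlap. Gata3, Tbx21 and Ahr were among the 25 that did not pass, at log2 fold changes of 0.18, 0.16 and -0.63.

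The list of ILC3 cytokines, which also holds the protease gene Furin, moved in both directions. Of its 13 tested members 4, with Furin among them, were called higher and 2 lower (1 lower in each fit without 1 NKp46 library, other than that without DKO library 2). Il17f was at 6.55, 1.97 and 4.05 CPM in WT and 101, 192 and 56 CPM in DKO libraries. DKO library 2 was the highest and DKO library 3 the lowest of the DKO libraries, all above each WT library, with a log2 fold change of 4.81 ± 0.61 (adjusted p = 3.3e-05). Il17a was far less abundant and rose from 0.367, 0.246 and 0 to 2.4, 5.66 and 2.44 CPM (4.03 ± 0.84, adjusted p = 0.0065, or 0.051 in the 6 libraries alone). Furin, which encodes the protease that matures TGF-beta and other precursors, rose from 321, 342 and 306 to 1659, 1785 and 1734 CPM (2.42 ± 0.19, adjusted p = 4.6e-08). Ltb, a chain of lymphotoxin, was at 515, 446 and 463 CPM in WT and 718, 662 and 562 CPM in DKO libraries (0.45 ± 0.12, adjusted p = 0.041, and adjusted p = 0.22 without DKO library 1). Hbegf, a growth factor for epithelium, fell from 216, 311 and 228 to 82.7, 139.6 and 106 CPM (-1.20 ± 0.20, adjusted p = 0.0006). Tnf was at 186, 204 and 196 CPM in WT and 107, 139.7 and 122 CPM in DKO libraries (-0.67 ± 0.18, adjusted p = 0.03, and adjusted p = 0.14 without DKO library 1).

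Il22, the cytokine for which NKp46 ILC3 are best known and named here for that reason after its values were seen, was at 1560, 1531 and 1176 CPM in WT and 517, 731 and 561 CPM in DKO libraries. The groups did not overlap, but the log2 fold change of -1.24 ± 0.41 did not pass the test (adjusted p = 0.11), while in the fit to the 6 NKp46 libraries alone the adjusted p was 0.002. Csf2, which encodes GM-CSF, was at 338, 239 and 208 CPM in WT and 128, 182 and 132 CPM in DKO libraries (adjusted p = 0.12, or 0.042 in the 6 libraries). Ifng, the type 1 cytokine, was at 55.3, 61.1 and 49.5 CPM in WT and 85.8, 82.8 and 78.7 CPM in DKO libraries (adjusted p = 0.6, or 0.028 in the 6 libraries). Among 10 tested cytokines of types 1 and 2, 1 was called higher and 2 lower, with 0 higher in 5 of the 6 fits without 1 NKp46 library and 0 lower without DKO library 1. Tgfb1 fell from 28.6, 20.9 and 25.6 to 7.97, 12.2 and 8.15 CPM (adjusted p = 0.016, and adjusted p = 0.072 without DKO library 1). Il4 was at 1.72, 1.48 and 0.979 CPM in WT and 4.13, 9.38 and 7.75 CPM in DKO libraries (adjusted p = 0.027, and adjusted p = 0.14 without WT library 3). Il33 was at 0.735, 1.6 and 0.653 CPM in WT libraries and had 0 counts in DKO libraries, at least 27.1-fold lower where the DKO group is set to a floor of 3 counts in all (adjusted p = 0.013, and adjusted p = 0.059 without DKO library 2). In the STAT and SOCS list 1 of 15 genes was called, Socs3, a feedback inhibitor of STAT3 signalling, which rose from 131, 99.9 and 90.6 to 256, 266 and 259 CPM (1.28 ± 0.17, adjusted p = 4.9e-05).

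**Figure D3:**
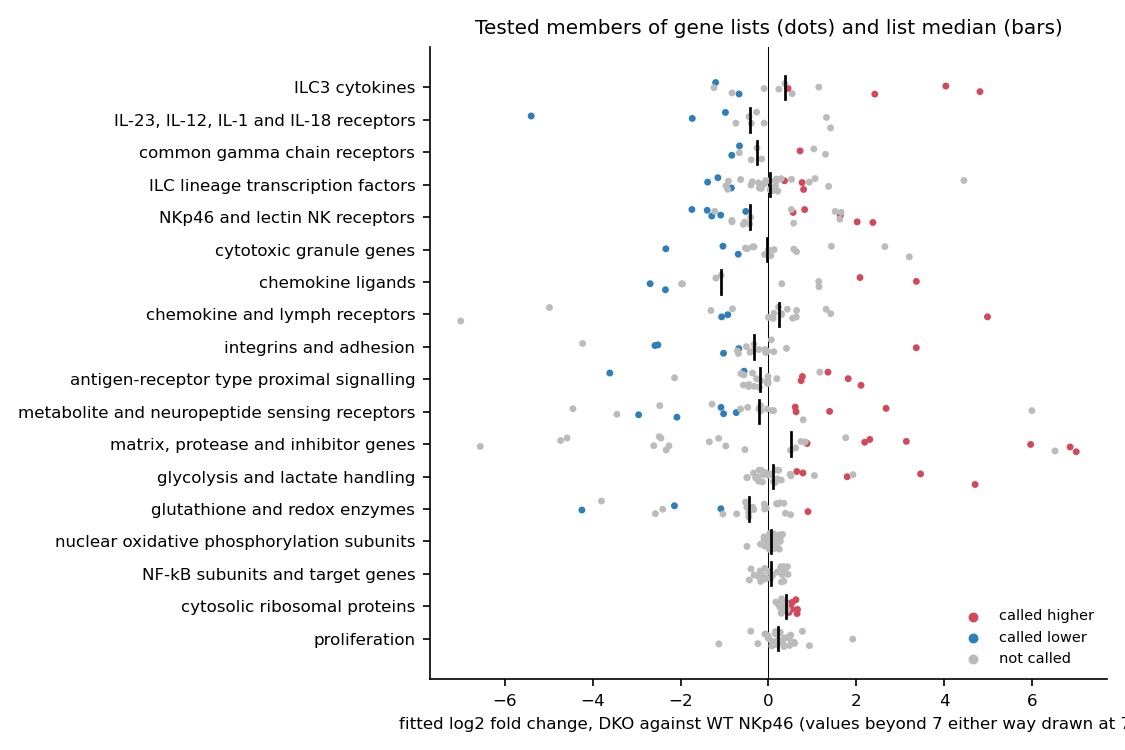
Fitted log2 fold change (horizontal) of the tested members of 18 gene lists, with called genes in red (higher) or blue (lower), others in grey and the list median as a bar. Called members lie on the left for the IL-23, IL-12, IL-1 and IL-18 receptors and on the right for the matrix and glycolysis lists and for the ribosomal proteins, while 0 members were called for oxidative phosphorylation, NF-kB and proliferation.

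Of 22 tested NKp46 and lectin-type NK receptor genes 5 were called higher (3 without WT library 3) and 5 lower, and 21 had an unadjusted p under 0.05, against 16.1% of all genes. Many of them lie in the NK gene complex of chromosome 6 (GRCm38). There, 32 tested genes from Klrb1a to Klra2 were picked by name (Klr genes, some Clec genes, Cd69 and Gabarapl1). Any other genes of this stretch are not covered. In the order of the chromosome, Klrb1a, Klrb1b, Klrb1f and Cd69 were called lower, and Klrc2, Klri1 and Klri2, all further along, were called higher. Klrb1f fell from 199.9, 166 and 153 to 78.1, 71.1 and 48.2 CPM (log2 fold change -1.39 ± 0.22, adjusted p = 0.00038). Klrb1b, an inhibitory receptor of the NKR-P1 family, fell from 680.1, 668 and 662 to 514, 440.3 and 451 CPM (-0.52 ± 0.09, adjusted p = 0.0017). Klrb1a was at 15.5, 11.4 and 13.9 CPM in WT and 4.58, 7.74 and 6.89 CPM in DKO libraries, and Klrb1c, which encodes NK1.1, at 143, 127 and 118 CPM in WT and 107, 101 and 85 CPM in DKO libraries (adjusted p = 0.0049 and 0.22). In the fit to the 6 NKp46 libraries alone, Klrb1a did not pass (adjusted p = 0.074). The activation marker Cd69 was at 2797, 3698 and 3050 CPM in WT and 1880, 2177 and 1926 CPM in DKO libraries (-0.67 ± 0.19, adjusted p = 0.045, and adjusted p = 0.22 without WT library 2).

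Klri2 was at 50.1, 64.5 and 31.5 CPM in WT and 241, 179 and 172 CPM in DKO libraries (2.02 ± 0.33, adjusted p = 0.00048), and Klri1 at 4.07, 2.34 and 3.82 CPM in WT and 19.6, 15.5 and 17.8 CPM in DKO libraries (2.38 ± 0.44, adjusted p = 0.002). Klrc2, which encodes the activating receptor NKG2C, was at 8.45, 13.2 and 5.97 CPM in WT and 27.5, 30.4 and 28.4 CPM in DKO libraries (1.64 ± 0.36, adjusted p = 0.0088, and adjusted p = 0.07 without WT library 3). Its inhibitory relative Klrc1 and their partner Klrd1 were at 41.4, 56.1 and 29.8 CPM in WT and 165, 129.8 and 105 CPM in DKO libraries, and at 2.24, 3.55 and 2.74 CPM in WT and 12.7, 7.66 and 6.1 CPM in DKO libraries. They did not pass (adjusted p = 0.051 and 0.078, or 0.004 and 0.044 in the 6 libraries alone), although their DKO libraries lay above their WT libraries. Klrk1, which encodes NKG2D, was at 305, 462 and 374 CPM in WT and 578, 549.9 and 570.3 CPM in DKO libraries (adjusted p = 0.15). The 8 tested Ly49 (Klra) genes, which mark NK cells, were at no more than 4.58 CPM, and edgeR called 0 of them (1 with an unadjusted p under 0.05, 1 by DESeq2 and 0 by limma voom). Genes of a family in this region are similar in sequence, and how the counting treated reads that fit several of them is not given in the sources used here.

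**Figure D4:**
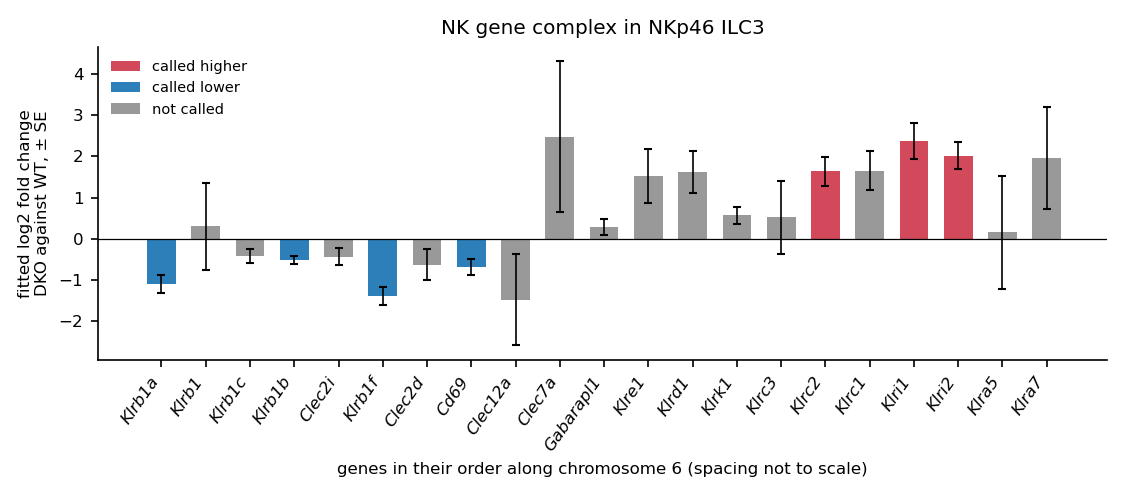
Fitted log2 fold change with its SE for 21 genes of the NK gene complex, in their order along chromosome 6, with called genes in colour. They are those of the genes picked by name that reached 1 CPM in an NKp46 library. From Klrb1a to Cd69 the called genes lie below 0, and from Klrc2 to Klri2 above 0.

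Outside this region, Fcgr3, an Fc receptor, fell from 87.7, 107 and 126 to 42.1, 33.8 and 55.3 CPM (-1.29 ± 0.18, adjusted p = 9.2e-05). Klrg1 was at 36.3, 19.6 and 22 CPM in WT and 9.56, 8.56 and 5.16 CPM in DKO libraries (-1.74 ± 0.45, adjusted p = 0.028, and adjusted p = 0.15 without WT library 1). Cd7 rose from 174, 212 and 161 to 363, 321 and 283 CPM (0.82 ± 0.16, adjusted p = 0.0033), and Cd160 was at 489, 406 and 390.4 CPM in WT and 690.0, 629.8 and 576 CPM in DKO libraries (0.56 ± 0.15, adjusted p = 0.034, and adjusted p = 0.18 without WT library 3). Ncr1 itself, by whose product the cells are named, did not pass the test at -0.83 ± 0.28 (adjusted p = 0.11, or 0.0087 in the 6 libraries alone), with each DKO library below each WT library. Of 16 cytotoxic granule genes 3 were called lower and 0 higher (1 lower without DKO library 2 or WT library 1). They are Serpinb6b, an inhibitor of granule proteases, at 230.0, 251 and 219 CPM in WT and 118, 116 and 108 CPM in DKO libraries (-1.03 ± 0.21, adjusted p = 0.0039), Ctsw (-0.69, adjusted p = 0.093 without DKO library 2) and Gzmc (-2.33, adjusted p = 0.18 without WT library 1). Prf1 and Gzmb did not pass, at log2 fold changes of 0.64 and 0.58.

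Of 19 tested chemokine and lymph receptors 1 was called higher and 2 lower, and of 19 integrins and adhesion genes 1 higher and 4 lower. The shares were 15.8% and 26.3%, against 4.16% of all genes and 11.7% of those over 100 CPM. Cxcr6, a chemokine receptor of tissue ILC3, fell from 2461, 2292 and 2273 to 1330, 1259 and 1114 CPM (log2 fold change -0.92 ± 0.19, adjusted p = 0.0053). Ccr9, the receptor that directs lymphocytes to the small intestine, fell from 581, 612 and 573 to 315, 267 and 263 CPM (-1.06 ± 0.21, adjusted p = 0.0037). In both genes each DKO library lay far below each WT library. Ccr7, the lymph node homing receptor, rose from 0.0613, 0.246 and 0.261 to 7.87, 9.71 and 0.905 CPM (4.98 ± 0.92, adjusted p = 0.002), with DKO library 3 far below the other two. The collagen-binding integrin chains Itga1 and Itga2 fell from 50.5, 52.3 and 48.4 to 12.6, 7.41 and 6.46 CPM and from 10.5, 8.05 and 9.37 to 2.19, 0.86 and 1.61 CPM (-2.52 ± 0.41 and -2.58 ± 0.43). Itga4, part of the gut homing integrin, fell from 52, 61.8 and 40.7 to 19.1, 32.2 and 24.8 CPM (-1.02 ± 0.19, adjusted p = 0.0017). Itgae, which encodes CD103, rose from 0.122, 1.33 and 0.816 to 10.4, 9.96 and 3.62 CPM (3.36 ± 0.67, adjusted p = 0.0039).

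Of 11 chemokines 2 were called higher and 2 lower (0 lower without DKO library 2, DKO library 3 or WT library 1). Ccl5 rose from 39.1, 34 and 30.4 to 154, 174 and 111 CPM (2.08 ± 0.31, adjusted p = 0.00017), and Cxcl3, which attracts neutrophils, from 7.87, 16.9 and 15.3 to 128, 156 and 128 CPM (3.36 ± 0.40, adjusted p = 1.4e-05). Ccl3 and Ccl4, which attract leukocytes, were at 42.5, 23.8 and 23.7 CPM in WT and 7.16, 3.62 and 3.11 CPM in DKO libraries, and at 126, 88.8 and 90.4 CPM in WT and 21.7, 22.2 and 16.2 CPM in DKO libraries. Their calls (-2.69 and -2.34, adjusted p = 0.023 and 0.034) were lost without single libraries (adjusted p = 0.12 without DKO library 2 and adjusted p = 0.13 without DKO library 3).

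Of 24 tested kinases and adaptors of the type used by antigen receptors 5 were called higher and 2 lower, which is 29.2% against 4.16% of all genes (1 lower without DKO library 1, DKO library 2, WT library 1 or WT library 2). The list as a whole did not rise, with 17 log2 fold changes below 0, 7 above 0 and a median of -0.19. Lat, the adaptor of the T cell receptor pathway, rose from 123, 135 and 157 to 396, 619 and 442 CPM (log2 fold change 1.81 ± 0.16, adjusted p = 2.8e-07). Lat2, a related adaptor, rose from 8.45, 3.68 and 10.5 to 31.1, 26.2 and 40.0 CPM (2.11 ± 0.32, adjusted p = 0.00025). Tec and the phosphatase Ptpn6 rose by 0.77 ± 0.15 and 0.74 ± 0.13 on the log2 scale. Plcg2, a phospholipase, was lower in DKO libraries at 177, 189 and 191 CPM against 279.5, 281 and 256 CPM (-0.55 ± 0.14, adjusted p = 0.083 without WT library 2). Blk, a Src family kinase, fell from 15.1, 11.2 and 17.7 to 2.86, 0.68 and 0 CPM (-3.61 ± 0.73, adjusted p = 0.0057, or 0.067 in the 6 NKp46 libraries alone). Of 19 checkpoint and costimulatory receptors 3 were called higher and 2 lower (1 higher without DKO library 1, DKO library 2, WT library 2 or WT library 3, and 1 lower without DKO library 2, DKO library 3, WT library 1 or WT library 2). Nt5e, which encodes the adenosine-forming enzyme CD73, fell from 320.2, 406 and 327 to 135, 143 and 167 CPM (-1.24 ± 0.24, adjusted p = 0.0029). Cd96 was at 422, 442 and 371 CPM in WT and 294, 220.1 and 244 CPM in DKO libraries (-0.70 ± 0.17, adjusted p = 0.11 without DKO library 2). Cd27 rose from 0.613, 1.6 and 2.19 to 11.3, 3.58 and 11.9 CPM (2.60 ± 0.53, adjusted p = 0.0049).

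The call with the smallest p was Mmp9, which encodes the secreted gelatinase MMP-9 (chromosome 2, 164940780 to 164955850). It was at 6.49, 7.85 and 8.65 CPM in WT and 972, 908 and 793 CPM in DKO libraries, a rise of 6.86 ± 0.24 on the log2 scale (adjusted p = 3.0e-14). It belongs to a list of 25 tested matrix, protease and inhibitor genes, of which 7 were called higher and 0 lower (5 to 6 higher without 1 NKp46 library). The share was 28%, against 4.16% of all genes. Ecm1, a secreted matrix protein, rose from 89.3, 70.0 and 43.5 to 645, 683 and 456 CPM (3.14 ± 0.27, adjusted p = 1.3e-07), and Abi3bp from 65.6, 69.2 and 66 to 247, 317 and 351 CPM (2.19 ± 0.19, adjusted p = 2.2e-07). Adam8, a membrane protease, rose from 13.1, 25.4 and 15.5 to 93.4, 110.5 and 63.6 CPM (2.31 ± 0.28, adjusted p = 1.6e-05). Timp3, an inhibitor of such proteases, was at 0, 1.31 and 0 CPM in WT and 28.6, 55.4 and 12.6 CPM in DKO libraries (5.96 ± 1.08, adjusted p = 0.0021), with all WT counts in WT library 2. The galectin gene Lgals3, named after its values were seen, did not pass and was at 107, 64 and 1077 CPM in WT and 664, 771 and 649 CPM in DKO libraries, so that WT library 3 stood above all others.

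Another rise with a small p-value was that of Srgap3, a regulator of small GTPases, from 11.4, 20.6 and 16.7 to 411, 386 and 398 CPM (4.61 ± 0.22, adjusted p = 8.2e-12). Tspan4, a tetraspanin, rose from 27.8, 13.9 and 18.2 to 183, 242 and 207 CPM, and Chsy1, a chondroitin synthase, from 49, 40.0 and 27.9 to 242, 205 and 186 CPM (3.40 ± 0.28 and 2.44 ± 0.19). Aldh2, a mitochondrial aldehyde dehydrogenase, rose from 11.6, 7.6 and 13.7 to 51.3, 59 and 73.5 CPM (2.49 ± 0.19, adjusted p = 3.5e-08). Some genes went from few or no counts to clear levels. Crybb2, a crystallin, had 0 counts in the WT libraries and 124, 176 and 129 CPM in the DKO libraries, at least 5335-fold higher. Pik3r6, a regulatory subunit of PI3K gamma, had 0 counts in WT and 8.22, 11.4 and 7.75 CPM in DKO libraries, at least 341-fold higher. Spon2, a secreted matrix protein, was at 0.459, 0 and 0 CPM in WT and 72.3, 119.7 and 33.5 CPM in DKO libraries (9.07 ± 1.27), Nckap5 at 0.0306, 0.0205 and 0.294 CPM in WT and 32.5, 37.5 and 35.8 CPM in DKO libraries (8.39 ± 0.67), and Zfp618 at 0.153, 0.0822 and 0.0326 CPM in WT and 18.9, 18.5 and 22.7 CPM in DKO libraries (7.76 ± 0.65). Wnt3, a secreted signal of the WNT family, was at 0.858, 0.0205 and 0.0326 CPM in WT and 42.6, 27 and 26.6 CPM in DKO libraries (6.80 ± 0.92, adjusted p = 6.2e-05).

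In the other direction, Ccdc184 fell from 200.3, 226 and 191 to 24.1, 21.7 and 21.3 CPM (log2 fold change -3.20 ± 0.21, adjusted p = 3.2e-09), the smallest p among the genes that fell. Ncoa7 fell from 990.2, 1001 and 933 to 228, 188 and 218 CPM (-2.21 ± 0.18, adjusted p = 6.0e-08), and Eps8l3 from 152, 160.5 and 156 to 6.67, 13.8 and 4.53 CPM (-4.23 ± 0.56, adjusted p = 4.7e-05). Lingo4, Cldnd1 and Fhl2 fell too, with log2 fold changes of -1.75 ± 0.17, -1.83 ± 0.19 and -1.93 ± 0.19. Mmp25, a membrane-bound metalloproteinase, fell from 75.5, 61.3 and 36.1 to 8.39, 4.58 and 4.13 CPM (-3.33 ± 0.35, adjusted p = 2.7e-06), unlike Mmp9. Other genes fell to few or no counts. Kcnc1, a potassium channel, fell from 19.4, 21.6 and 24.9 to 1.2, 0.107 and 0 CPM (-5.62 ± 1.06), and Pcp4, a calmodulin-binding peptide, from 14.4, 15.3 and 19.9 to 0.247, 0 and 0 CPM (-7.57 ± 1.32). Kcnip3, a potassium channel partner, was at 8.73, 10.6 and 13.8 CPM in WT libraries and had 1 count in all DKO libraries together. Dscam, an adhesion gene of neurons, was at 4.04, 8.01 and 10.5 CPM in WT and 0.0706, 0 and 0.0787 CPM in DKO libraries (-7.18 ± 0.99). Ociad2 had 6.22, 2.94 and 7.8 CPM in WT and 0 counts in DKO libraries, at least 154-fold lower. Trpc6, a cation channel, likewise went from 3.34, 5.73 and 6.33 CPM to 0 counts, at least 139.8-fold lower (adjusted p = 0.018, and adjusted p = 0.071 without DKO library 2). Pros1, which encodes protein S, was at 13.3, 4.25 and 3.53 CPM in WT libraries and had 3 counts in all DKO libraries together.

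Of 33 tested genes of lipid uptake, storage and oxidation 2 were called higher and 1 lower. This share of 9.09% lies between the 6.51% of all genes at 10 to 100 CPM and the 11.7% over 100 CPM. Lpl, the lipoprotein lipase that frees fatty acids from circulating lipoproteins, rose from 0.398, 0.945 and 0.131 to 115, 125 and 98 CPM (log2 fold change 7.74 ± 0.53, adjusted p = 4.6e-09). The other calls were Plin2, a lipid droplet protein (0.91, adjusted p = 0.2 without DKO library 1), and Elovl6, a fatty acid elongase (-0.73, adjusted p = 0.094 without DKO library 3). Of 17 genes of arginine and amino acid metabolism 1 was called higher and 1 lower (11.8%, near the 11.7% of all genes over 100 CPM). Ass1, the arginine-forming enzyme argininosuccinate synthase, was at 1.44, 4.54 and 9.76 CPM in WT and 462, 469.7 and 388 CPM in DKO libraries (6.40 ± 0.57, adjusted p = 2.2e-07). Ass1 has processed copies in the genome with which it may share reads. Its partner Asl did not pass, at 89.5, 85 and 83.4 CPM in WT and 60.3, 78.7 and 76.5 CPM in DKO libraries. Slc6a20a, an amino acid transporter, fell from 217, 236 and 201 to 32.1, 19.7 and 34.2 CPM (-2.93 ± 0.43, adjusted p = 0.00017).

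Of 29 tested genes of glycolysis and lactate handling 5 were called higher and 0 lower (3 without DKO library 1, WT library 2 or WT library 3). The share was 17.2%, against 11.7% of all genes over 100 CPM. Hk3, a hexokinase, rose from 6.58, 1.52 and 8.81 to 65.3, 74.1 and 44.5 CPM (3.46 ± 0.58, adjusted p = 0.00063), and the phosphofructokinase gene Pfkp from 360.2, 366 and 373 to 626, 674 and 593 CPM (0.78 ± 0.14, adjusted p = 0.0012). Slc16a3, a lactate exporter, rose from 8.09, 7.81 and 6.89 to 26.2, 24.4 and 28.2 CPM (1.79 ± 0.26, adjusted p = 0.00014). Slc16a1, a lactate transporter, was at 0.214, 0.144 and 0.0326 CPM in WT and 6.38, 3.22 and 0.866 CPM in DKO libraries (4.70 ± 1.10, adjusted p = 0.085 without WT library 3), and Pfkl was called at 0.65 ± 0.16 (adjusted p = 0.18 without WT library 3). The median log2 fold change of the list was 0.11, and Ldha, Pkm, Gapdh and Slc2a1 were among the 24 not called. Gpx1, the main glutathione peroxidase, fell from 1107, 1045 and 1030 to 551, 545 and 408 CPM (-1.08 ± 0.15, adjusted p = 9.5e-05), and Gstm5, a glutathione transferase, from 152, 114 and 121 to 35.3, 24.8 and 27.6 CPM (-2.14 ± 0.19, adjusted p = 2.8e-07). Gclm, a subunit of the enzyme that limits glutathione synthesis, was at 1.13, 1.87 and 0.588 CPM in WT and 0.141, 0 and 0.0394 CPM in DKO libraries (-4.24 ± 1.08, adjusted p = 0.11 without DKO library 2). Sod2, the mitochondrial superoxide dismutase, rose from 146, 162 and 131 to 280.5, 284 and 254 CPM (0.90 ± 0.16, adjusted p = 0.0018).

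By edgeR 0 genes were called in the lists of nuclear oxidative phosphorylation subunits (35 tested), mitochondrially encoded genes (13), mitophagy and mitochondrial biogenesis (26), heme synthesis, export and breakdown (20), NF-kB subunits and targets (23) and proliferation (31). Their median log2 fold changes were 0.07, 0.24, -0.02, -0.09, 0.05 and 0.22. Without an adjustment 2, 3, 4, 2, 4 and 3 of their genes had a p under 0.05, DESeq2 called 1, 2, 1, 1, 1 and 1, and limma voom called 0, 0, 0, 1, 0 and 0.

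Receptors for metabolites and neuropeptides were called in 9 of 23 tested members, 4 higher and 5 lower (39.1%, against 4.16% of all genes and 6.51% of those at 10 to 100 CPM). Ramp1, the partner of the calcitonin receptor-like receptor that makes it respond to CGRP, rose from 11.9, 10.8 and 15.2 to 62.6, 101 and 78.5 CPM (log2 fold change 2.67 ± 0.24, adjusted p = 2.8e-07). Ramp3, whose product turns the same receptor to adrenomedullin, fell from 71.2, 89.6 and 61.3 to 9.98, 11.8 and 6.93 CPM (-2.95 ± 0.38, adjusted p = 3.4e-05). Ffar2, whose product senses short-chain fatty acids, was lower, going from 391, 338 and 399 to 218, 176 and 162 CPM (-1.02 ± 0.14, adjusted p = 0.0001). Nmur1, a neuromedin U receptor, was at 26.9, 22.4 and 22.2 CPM in WT and 5.15, 5.84 and 5.9 CPM in DKO libraries, and its call was lost in each fit without an NKp46 library (-2.08 ± 0.55, adjusted p = 0.031, and adjusted p = 0.11 without DKO library 1). Of the proton-sensing receptors, Gpr132 and Gpr65 were called higher at 0.63 ± 0.13 (adjusted p = 0.052 without WT library 1) and 0.61 ± 0.15 (adjusted p = 0.15 without DKO library 1). Adora2a, an adenosine receptor, was called at 3.49, 2.73 and 6.27 CPM in WT and 9.88, 10.8 and 11.8 CPM in DKO libraries (1.39 ± 0.35, adjusted p = 0.16 without WT library 2), and Gpr171 was called at -0.73 (adjusted p = 0.18 without DKO library 3). Without 1 NKp46 library, 1 to 3 of these receptors were called higher, 1 without WT library 1, and 3 to 4 lower, 3 without DKO library 2 or any WT library.

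Of 25 listed cytosolic ribosomal proteins 12 were called higher and 0 lower (48.0%, against 11.7% of all genes over 100 CPM), with all 25 log2 fold changes above 0 and a median of 0.39. The changes were small. Rplp0, a protein of the ribosomal stalk, rose from 1383, 1181 and 1143 to 2253, 1909 and 1663 CPM (0.65 ± 0.14, adjusted p = 0.007, and adjusted p = 0.076 without DKO library 1). The count fell to 1 without DKO library 2 or without WT library 3 and was 13 without DKO library 3. Over all 81 ribosomal protein genes found by their description, 24 were called higher, and they took 4.15 to 4.30% of counts in WT and 5.42 to 5.93% in DKO libraries, without overlap. Processed pseudogenes, copies of mature transcripts, were 3366 of the 21286 genes tested, 85 of the 424 higher genes and 10 of the 461 lower ones, and 2.82% of them were called, fewer than the 4.16% of all genes. Among the 230 tested that are named for ribosomal proteins 28 were called higher and 1 lower. A read from such a gene can map to its copies, and how the counting treated such reads is not given in the sources used here.

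Of 24 genes of dissociation stress and immediate early response 3 were called lower and 2 higher (1 higher without DKO library 2 or WT library 3), and their summed level ranged from 34920 to 41310 CPM over the WT libraries and from 30760 to 35360 CPM over the DKO libraries. Zfp36, which encodes an mRNA-decay factor, fell from 6207, 7459 and 5551 to 3587, 3066 and 2540 CPM (-1.06 ± 0.21, adjusted p = 0.0035), and Atf3 from 428, 558 and 351 to 184, 173 and 139 CPM (-1.43 ± 0.30, adjusted p = 0.006). The heat shock gene Hspa1a was at 98.9, 54.9 and 40.0 CPM in WT and 3.25, 12.8 and 3.74 CPM in DKO libraries (-3.29 ± 0.90, adjusted p = 0.18 without DKO library 1). Klf2, a factor of lymphocyte trafficking, was at 13.6, 16.4 and 6.5 CPM in WT and 34, 38.4 and 33.9 CPM in DKO libraries (1.54 ± 0.35, adjusted p = 0.011, and adjusted p = 0.076 without WT library 3). Junb was at 4992, 4023 and 4210 CPM in WT and 7287, 7355 and 6427 CPM in DKO libraries (0.67 ± 0.15, adjusted p = 0.0083, and adjusted p = 0.06 without WT library 2), and Fos at 5541, 6760 and 5317 CPM in WT and 5285, 4355 and 4398 CPM in DKO libraries (adjusted p = 0.16). The part of such stress genes in the changes of Tnf, Ccl3, Ccl4 and Hbegf was not tested. Of 30 interferon-stimulated genes 1 rose and 1 fell, a share of 6.67% near the 4.16% of all genes. These were Oasl2 from 52.3, 59.1 and 38.2 to 161, 139 and 135 CPM (1.54 ± 0.20, adjusted p = 3.4e-05) and Irf7 from 153, 187 and 153 to 78.9, 63.3 and 78.7 CPM (-1.16 ± 0.24, adjusted p = 0.0051). Of 21 other nuclear receptors 1 was called higher and 2 lower (0 lower without DKO library 2, WT library 1 or WT library 2). The share was 14.3%, against 11.7% of all genes over 100 CPM. Nr4a2 rose by 1.41 ± 0.29 on the log2 scale, and Nr3c1, the glucocorticoid receptor, was called lower at -0.71 ± 0.17 (adjusted p = 0.09 without DKO library 2). The anti-apoptotic gene Bcl2a1d fell from 38, 31.1 and 33.7 to 14.9, 10.7 and 10.7 CPM (-1.50 ± 0.28, adjusted p = 0.0018), with near-identical copies in the same family.

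Markers of other cell types moved with some of these genes. Of 19 T cell genes 2 were called higher, Lat and the receptor constant gene Trac (1 without DKO library 1, WT library 1 or WT library 2). The share of 10.5% compares with 4.16% of all genes and 11.7% of those over 100 CPM. The summed level of the list ranged from 2452 to 2531 CPM over the WT libraries and from 2310 to 2799 CPM over the DKO libraries. Trac was at 4.59, 8.85 and 14.2 CPM in WT and 31.7, 20.3 and 14.8 CPM in DKO libraries (1.27 ± 0.30, adjusted p = 0.017, and adjusted p = 0.13 without DKO library 1). Cd3e was at 10.2, 13.3 and 15.2 CPM in WT and 32.9, 25.8 and 16.3 CPM in DKO libraries and Cd5 at no more than 0.326 CPM in any library. The part of T cells in the higher levels of Lat, Ccl5 and Ccr7 was not tested. Of 16 tested B and plasma cell genes 2 were called higher and 2 lower (1 lower in each fit without 1 NKp46 library except that without WT library 2). Ighm, the IgM heavy chain constant gene, rose from 63.9, 77.5 and 65.6 to 257, 251 and 203 CPM (1.78 ± 0.20, adjusted p = 5.6e-06), and Bank1 from 0.674, 1.01 and 0.261 to 9.63, 17.2 and 21.6 CPM (4.59 ± 0.49, adjusted p = 3.7e-06). Cd79b was at 122, 79.4 and 92.6 CPM in WT and 62.8, 64 and 40.6 CPM in DKO libraries (-0.81 ± 0.23, adjusted p = 0.24 without WT library 1), and Igkc was at 26.9, 23.3 and 91.5 CPM in WT and 26.1, 9.03 and 444 CPM in DKO libraries. Igkc and the IgA constant gene Igha, at 35.3, 19.3 and 91 CPM in WT and 17.5, 4.91 and 493 CPM in DKO libraries, were thus highest in DKO library 3, while Ighm was high in all 3 DKO libraries. The summed B and plasma cell level was 568 to 739 CPM in WT libraries and 634, 642 and 1606 CPM in DKO libraries, ordered by size. Of 14 MHC class II and LTi-like genes 3 were called higher and 0 lower, namely H2-Aa, Ccr7 and Il17a. H2-Aa, a class II chain, rose from 6.25, 9.37 and 7.02 to 25.4, 18.3 and 35.7 CPM (1.81 ± 0.24, adjusted p = 4.7e-05), whereas H2-Ab1 and Cd74 did not pass, at 0.24 and 0.33. Of the myeloid, epithelial and stromal lists 1 of 21, 0 of 15 and 1 of 15 members were called by edgeR. Of the epithelial genes 4 had an unadjusted p under 0.05, and DESeq2 called 2 and limma voom 1. The summed myeloid level was between 1511 and 1822 CPM over the WT and between 1052 and 1142 CPM over the DKO libraries, without overlap, and its part in the results was not tested. The myeloid call was Fcer1g, also a signalling chain of NK receptors, at 971, 971 and 914 CPM in WT and 616, 656 and 552 CPM in DKO libraries (-0.65 ± 0.13, adjusted p = 0.0037), and Csf1r stayed at or under 1.47 CPM. The stromal call was Pdgfrb, at 18.2, 19.3 and 14.1 CPM in WT and 122, 103 and 94.7 CPM in DKO libraries (2.63 ± 0.44, adjusted p = 0.0006). Of 19 ILC2 genes 1 was called higher and 3 lower, among them Klrg1, Nmur1 and Il4 above (0 lower without any 1 of the DKO libraries, and 0 higher in 5 of the 6 fits without 1 NKp46 library).

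For some genes the effect of genotype in NKp46 ILC3 differed from that in the other populations. The test of the difference from the mean effect in CCR6 and DN called 103 genes (0.484%), 56 with a higher (0.263%) and 47 with a lower effect (0.221%) in NKp46. The test of the difference from ILC1 called 119 (0.559%), 47 higher (0.221%) and 72 lower (0.338%). These counts were 49 to 95 and 58 to 118 without 1 NKp46 library, the fewest without WT library 3 in both, and 235 and 145 without WT ILC1 library 2. Of the genes named here with more than 3 counts in each group compared, 27 were called for the first difference and 24 for the second. Left out for 3 or fewer counts in a group were Ociad2 and Pros1, which also passed the first test. For the same reason Blk, Il17a, Il33, Kcnip3, Krt27, Ociad2, Pik3r6 and Pros1, which passed the second, were left out. Of the 27 and 24 genes, 12 and 16 were called in each of the 6 fits without 1 NKp46 library, and 27 and 23 without WT ILC1 library 2. A difference given below was among them unless an adjusted p without a library stands beside it.

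The clearest difference from the other ILC3 populations was that of Cd7, whose log2 fold change was 0.82 in NKp46, -2.79 in CCR6 and -0.25 in DN, a difference of 2.34 ± 0.20 (adjusted p = 1.6e-06). Ccl5 was 2.08 in NKp46 against -1.30 and -0.92 (difference 3.19 ± 0.38, adjusted p = 0.00019). Ighm was 1.78 against 0.15 and -0.46, and H2-Aa 1.81 against -0.46 and 0.44 (differences 1.94 ± 0.24 and 1.82 ± 0.28, adjusted p = 0.00024 and 0.0027). Socs3 and Aldh2 also had a larger effect in NKp46 than the mean of the other two, with differences of 1.34 ± 0.21 and 1.62 ± 0.22 (adjusted p = 0.0022 and 0.00076). Trac differed by 2.20 ± 0.37 (adjusted p = 0.0051). Klrb1c, not called in NKp46, was -0.41 there against -2.32 and -1.41 (difference 1.46 ± 0.21, adjusted p = 0.0011). Tnf and Hbegf went the other way. Tnf was -0.67 in NKp46 against 0.98 and 0.78 (difference -1.54 ± 0.22, adjusted p = 0.00087), and Hbegf was -1.20 against 0.58 and 0.40 (difference -1.69 ± 0.24, adjusted p = 0.0011). Fcgr3 and Lrrn2 fell in NKp46 but were -0.07 and 0.42 in CCR6 and 0.10 and -0.73 in DN (differences -1.31 ± 0.22 and -3.01 ± 0.50, adjusted p = 0.0047 and 0.0044), with Lrrn2 at 81.6, 67.4 and 60.3 CPM in WT and 9.14, 8.7 and 5.55 CPM in DKO libraries.

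Against ILC1, Mmp9 differed most clearly, at 6.86 in NKp46 and 0.81 in ILC1 (difference 6.05 ± 0.28, adjusted p = 1.3e-11). Srgap3 was 4.61 against 1.88, Bhlhe41 6.07 against 0.11 and Lpl 7.74 against 2.86 (differences 2.73 ± 0.27, 5.95 ± 0.67 and 4.88 ± 0.61, adjusted p = 1.5e-05, 8.7e-05 and 0.00024). Lat and Chsy1 rose in NKp46 and were 0.15 and 0.13 in ILC1 (differences 1.66 ± 0.23 and 2.31 ± 0.26, adjusted p = 0.00062 and 8.7e-05). Il17f was 4.81 against -1.55 (difference 6.36 ± 1.21, adjusted p = 0.017). Ccdc184, Ncoa7 and Cldnd1 were -1.03, -0.74 and -0.27 in ILC1, above their effect in NKp46 (differences -2.17 ± 0.28, -1.47 ± 0.24 and -1.56 ± 0.26, adjusted p = 0.00026, 0.0059 and 0.0067). The genotype effect on Nr1d1 was 0.82 in NKp46 and 2.34 in ILC1, a difference of -1.52 ± 0.29 (adjusted p = 0.017, and adjusted p = 0.05 without DKO library 1).

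**Figure D5:**
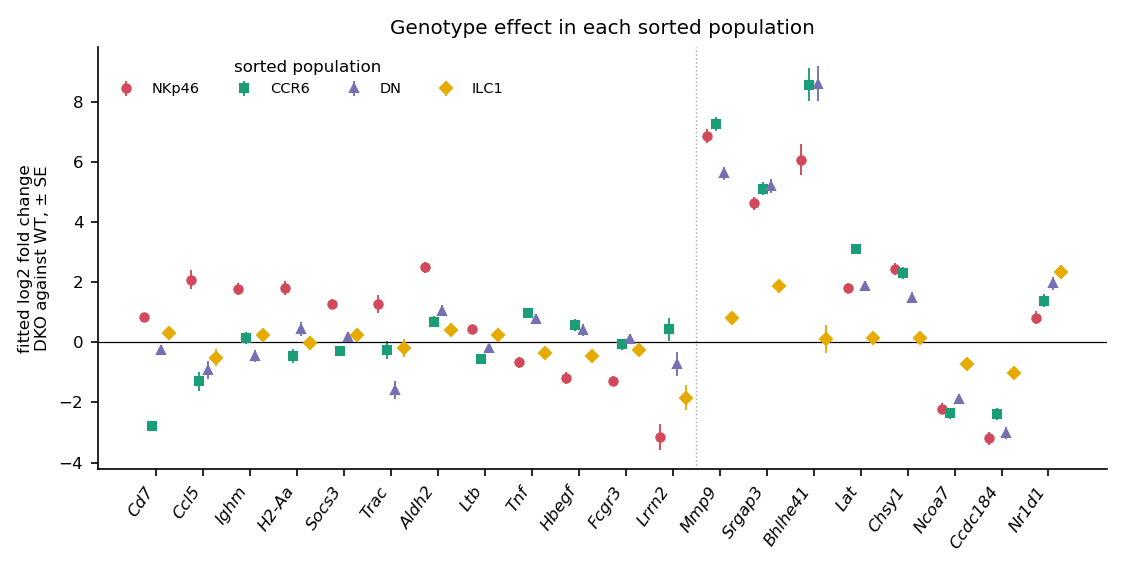
Fitted log2 fold change of DKO against WT with its SE in the NKp46, CCR6, DN and ILC1 populations for 20 genes whose NKp46 effect differed from the mean of CCR6 and DN (left of the dotted line) or from ILC1 (right of it). For Tnf and Hbegf the NKp46 value lies below 0 and the CCR6 and DN values above 0, and for Mmp9, Lat and Chsy1 the 3 ILC3 populations lie above ILC1.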

How the data were processed

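RNA of cells sorted from small intestinal lamina propria was made into libraries with a SMARTer low-input kit, per the labels' protocols. The authors deposited raw read counts per gene. The submitters' processing notes name STAR 2.7.9a, featureCounts 2.0.3, Salmon 1.5.2, DESeq2 and mm10, without roles, and the strand setting is not given in the sources used here. Of 55774 rows, repeated rows of 168 gene IDs, identical in counts, were kept once. With edgeR 4.0.16 in R 4.3.3, genes were filtered (filterByExpr), scaled by TMM and fitted as 8 group means over 24 libraries (16 residual degrees of freedom). The quasi-likelihood test was adjusted by Benjamini-Hochberg over 21286 genes, and called means an adjusted p under 0.05. In simulated data with 200 changed genes, none of low level, the procedure called 53% of 2-fold and 92% of 4-fold changes. It also called 3 unchanged genes. A gene not called can thus still have changed. Alternatives used DESeq2 1.42.0 and limma 3.58.1 voom, other filters and libraries. The comparison, the gene lists and the naming rule were chosen with earlier results of these data known. The rule named the target and clock genes, the 15 largest and 10 smallest-p calls each way, up to 6 members of each list and 6 differences each way. Outside it, Il22, Csf2, Lgals3, Igkc, Igha, Il1r1, Fos, Prf1, Gzmb, Ldha, Pkm, Gapdh, Slc2a1, Cd5, Klrb1c, Ahr, H2-Ab1, Adora2a, Gpr171 and the genes near Nr1d1 were chosen after their values were seen. Coordinates are GENCODE's and promoters RefSeq's, both on GRCm38. Some genes counted in the lists are not reported here by name.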

Additional observations from a re-analysis of the deposited data

Results flagged for a closer look

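The genes below are those named above whose genotype effect in NKp46 ILC3 differed from that in the other populations by edgeR's quasi-likelihood test of the difference, at an adjusted p under 0.05 over all genes. Genes with 3 or fewer counts in a group compared, given above, are left out. Each value is the log2 fold change in NKp46 minus the other one, so a positive value means a higher effect in NKp46. No explanation for any of them was tested.

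Against the mean effect in CCR6 and DN, the differences called in each of the 6 fits without 1 NKp46 library were Aldh2 1.62, Ccl5 3.19, Cd7 2.34, Fcgr3 -1.31, H2-Aa 1.82, Hbegf -1.69, Ighm 1.94, Klrb1c 1.46, Lrrn2 -3.01, Socs3 1.34, Tnf -1.54 and Trac 2.20. Those lost in at least 1 of these fits, with the highest adjusted p, were Abi3bp -1.14 (0.091 without DKO library 1), Adora2a 2.06 (0.13 without WT library 2), Bhlhe41 -2.52 (0.21 without WT library 3), Ccr7 4.54 (0.19 without WT library 1), Cd160 0.95 (0.091 without WT library 3), Cd3e 1.78 (0.17 without WT library 1), Cd74 1.21 (0.15 without DKO library 1), Csf2 -1.54 (0.19 without WT library 1), Gpr65 1.03 (0.061 without DKO library 1), Itgae 3.88 (0.086 without WT library 3), Klri2 -1.76 (0.19 without WT library 2), Lingo4 -0.98 (0.077 without DKO library 1), Ltb 0.83 (0.061 without DKO library 1), Nckap5 4.09 (0.056 without WT library 2) and Pfkp -0.84 (0.082 without DKO library 1).

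Against the effect in ILC1, the differences called in each of these fits were Aldh2 2.07, Bhlhe41 5.95, Ccdc184 -2.17, Ccl5 2.60, Chsy1 2.31, Cldnd1 -1.56, H2-Aa 1.83, Ighm 1.54, Il17f 6.36, Lat 1.66, Lpl 4.88, Mmp9 6.05, Ncoa7 -1.47, Spon2 9.09, Srgap3 2.73 and Zfp618 6.29. Those lost in at least 1 fit, with the highest adjusted p, were Ccr7 5.26 (0.12 without WT library 1), Cd3e 2.16 (0.09 without WT library 1), Dscam -5.97 (0.069 without DKO library 2), Nr1d1 -1.52 (0.05 without DKO library 1), Nt5e -1.73 (0.056 without DKO library 2), Ramp1 1.44 (0.15 without DKO library 2), Slc16a3 1.60 (0.12 without WT library 3) and Socs3 1.05 (0.14 without WT library 3). Without WT ILC1 library 2, the difference of Slc16a3 was lost (adjusted p = 0.067) and the others were called.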

How the results depend on the processing

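Under the 17 alternative fits, which changed the scaling, the filter, the tool, the libraries or the model, no called gene that was tested changed sign. Depending on the fit, 488 to 885 of the 885 called genes were called again. DESeq2 called 801 genes higher and 915 lower, with 454 differing from the mean effect in CCR6 and DN and 525 from ILC1. The fit to the 18 NKp46, CCR6 and DN libraries called 801 higher, 936 lower and 396 differing from CCR6 and DN. Without WT ILC1 replicate 2 there were 604 higher, 784 lower, 235 differing from CCR6 and DN and 145 from ILC1. With no filter on low counts 176 genes differed from CCR6 and DN and 296 from ILC1, and with limma voom 33 differed from ILC1 (51 with a correlation within genotype and number). Counting only genes past an absolute log2 fold change of 1, a choice made after seeing the data, left 233 higher and 293 lower. The cause of these shifts was not tested.

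Leaving out 1 NKp46 library gave 232 to 344 genes higher and 284 to 399 lower, 49 to 95 that differed from CCR6 and DN and 58 to 118 that differed from ILC1. Of the 307 genes that the naming rule covers, 160 were called. Of those 160, 22 to 38 lost their call in each of these fits, and 111 kept it in all 6. In the fit to the 6 NKp46 libraries alone 498 genes were higher and 491 lower, 23 of these named genes gained a call, among them Nr1d2, Per2, Ncr1 and Ifng, and 13 lost it. Calls given above that did not pass in this fit include Trac (adjusted p = 0.13), Cry1 (0.12), Gclm (0.085), Klrb1a (0.074), Blk (0.067) and Batf (0.065). Others were Adora2a (0.065), Cd79b (0.063), Gpr65 (0.06), Gzmc (0.06), Rora (0.052) and Il17a (0.051).

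WT and DKO NKp46 libraries of the same number did not deviate together in log CPM (correlations of 0.031, -0.011 and 0.009). Their TMM scaling factors did rise with the number, at 0.981, 0.995 and 1.05 in WT and 0.972, 1.014 and 1.074 in DKO libraries. In WT ILC1, by contrast, library 2 had the highest factor (0.976). Over all 24 libraries, limma estimated a correlation of 0.037 within genotype and number. Whether a number marks a shared animal, litter or batch was not tested. With a replicate block the 24-library fit called 490 genes higher and 533 lower, 124 differing from CCR6 and DN and 130 from ILC1, and the 6-library fit called 443 and 467. With the block in all 24 libraries 10 of the named genes gained and 2 lost a call.

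Depth was 29.19 to 48.9 M counts in WT and 23.7 to 29.17 M in DKO libraries. Genes under 1 CPM, of which 0.753% were called, thus rest on few counts. The labels give no animal, batch or collection time, so these cannot be told apart from genotype.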
